A study of Rattus norvegicus with 27 samples.

Results

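The genes described are 48 genes whose products act in mitosis, chosen by name from a list of cell division genes and followed in acinar cells of the developing rat parotid gland. Each gene was represented by the probe set with the highest mean over all arrays among those paired with its symbol alone. Of the 48 genes 41 were measured in this way, out of 14217 genes with such a probe set. The other 7, Cdc25c, Nek2, Ndc80, Tpx2, Kif4a, Ncapg and Anln, had no probe set of their own symbol alone and have no value here. Acinar cells of Sprague Dawley rats were captured by laser from stained sections before birth (E18 and E20), on its day (P0), and then at P2, P5 and P9 and at P15, P20 and P25, all in days. There were 3 arrays per age, 27 in all, each standing for a litter of its own according to the methods of the study, and no group was treated or genetically altered. Sections came from heads until P5 and from glands dissected free afterwards, so this change lies between P5 and P9, within every comparison of E18 with P20 or P25. Levels are log2 intensities of the probe sets, on which a difference of 1 is a factor of 2 and which have no true zero.

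Mitosis separates the copied chromosomes into daughter cells. Cyclins A and B with the kinase Cdk1 start it, condensins and topoisomerase II compact and disentangle the chromosomes, kinetochores tie them to the spindle, and a checkpoint holds the cell in metaphase until every chromosome is attached. The anaphase-promoting complex (APC/C) then marks securin and cyclin B for destruction, separase cuts cohesin, and the central spindle directs the division of the cytoplasm. Transcripts of most of these genes accumulate mainly in late G2 and mitosis, so their level in a tissue is widely used as a measure of dividing cells. In the rat parotid acinar cells go on dividing for weeks after birth while they fill with secretory granules.

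As a check on the cell type, 15 acinar cell markers were read. Their mean level per array lay between 4.72 and 5.54 at E18 below the array medians of 5.91 to 6.13, between 5.26 and 6.0 at E20, then between 8.11 and 9.23 at P2 and P5, and between 12.90 and 13.12 at P25. The acinar markers were thus low in the E18 captures, so they do not show the cell type there, and 15 of 15 rose from E18 to P25 (20.1% of all probe sets rose). At E18 the mean of 12 fibroblast markers ran from 9.30 to 10.16, that of 11 skeletal muscle markers from 5.69 to 11.18 and that of 11 duct cell markers from 5.08 to 5.52. The skeletal muscle mean ran from 5.60 to 11.33 at E20. Fewer dividing cells and less of a transcript in each dividing cell cannot be told apart in these captures of many cells.

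Over the whole course the mitosis genes were high before birth and low at P25. Of the 41 genes 35 changed over the 9 ages (limma moderated F test, adjusted p under 0.05), or 85.4% against 24.5% of all 31042 probe sets. The mean level of the 41 genes was 8.72, 9.03 and 9.13 on the E18 arrays, 7.96, 7.02 and 7.82 on the P20 arrays and 5.98, 6.29 and 5.51 on the P25 arrays. The P25 arrays lay below all others. From E18 to P25, 39 genes fell and 0 rose, against 13.4% of all probe sets that fell, and in 37 genes every P25 array lay below every E18 array, against 15.3% of all probe sets. The median difference was -3.06, and that of all probe sets was 0.24. Over the same span 6 of 12 fibroblast markers fell, with array means from 9.30 to 10.16 at E18 and from 8.08 to 8.54 at P25, as did 3 of 8 cartilage and bone markers (6.24 to 9.94 and 4.90 to 5.29), while 5 of 10 lymphocyte markers rose (3.92 to 4.35 and 5.86 to 6.20). Their part in the values of the mitosis genes was not tested. Mad2l1 and Cdc20 did not pass the test here, and Mad2l1, Top2a, Smc2, Cdc20, Pttg1 and Kif2c did not pass the F test. Dimmer probe sets of Top2a (adjusted p = 0.00442) and Mad2l1 (0.000332 and 0.00689) did pass the F test, and those of Cdc20 and Kif2c did not.

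**Figure D1:**
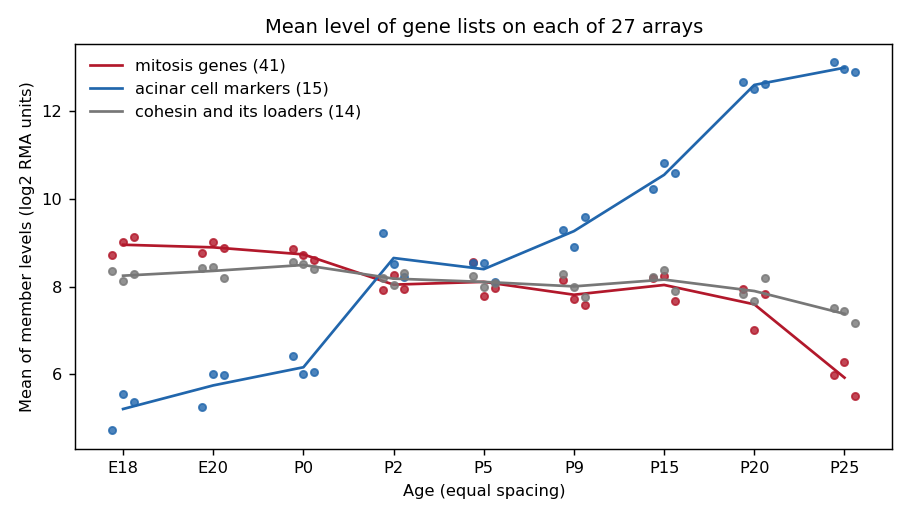
Mean log2 level of the 41 mitosis genes, the 15 acinar cell markers and 14 cohesin genes on each of the 27 arrays (points) and the mean of each age (lines), with the 9 ages at equal spacing. The mitosis genes stayed between 8.61 and 9.13 up to P0, between 7.02 and 8.57 from P2 to P20 and between 5.51 and 6.29 at P25, while the acinar markers ended between 12.90 and 13.12.

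The members were among the brighter probe sets of the early arrays, and the shares of all probe sets given beside their counts were not matched for level. At E18 the median member stood at percentiles 83.9, 87.9 and 86.5 of the 3 arrays, and 0 of the 41 lay below the median probe set of its array. At P25 the median member stood at percentiles 46.8, 51.8 and 35.1. There 22, 19 and 29 of the 41 genes lay below the array median. Within an age 666 of 820 pairs of members had a positive correlation of their deviations from the age means (median 0.25 over 27 arrays, which share amplification and hybridisation for all genes). Pairs of other probe sets were not taken, so this is not shown to be particular to the members. The pairs share genes and arrays and are not independent. On P5 replicate 1 all 41 genes lay above their P5 mean, and on P20 replicate 2 only 2 of 41 lay above their P20 mean. The median deviation of all probe sets on these arrays was 0.004 and 0.025.

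**Figure D2:**
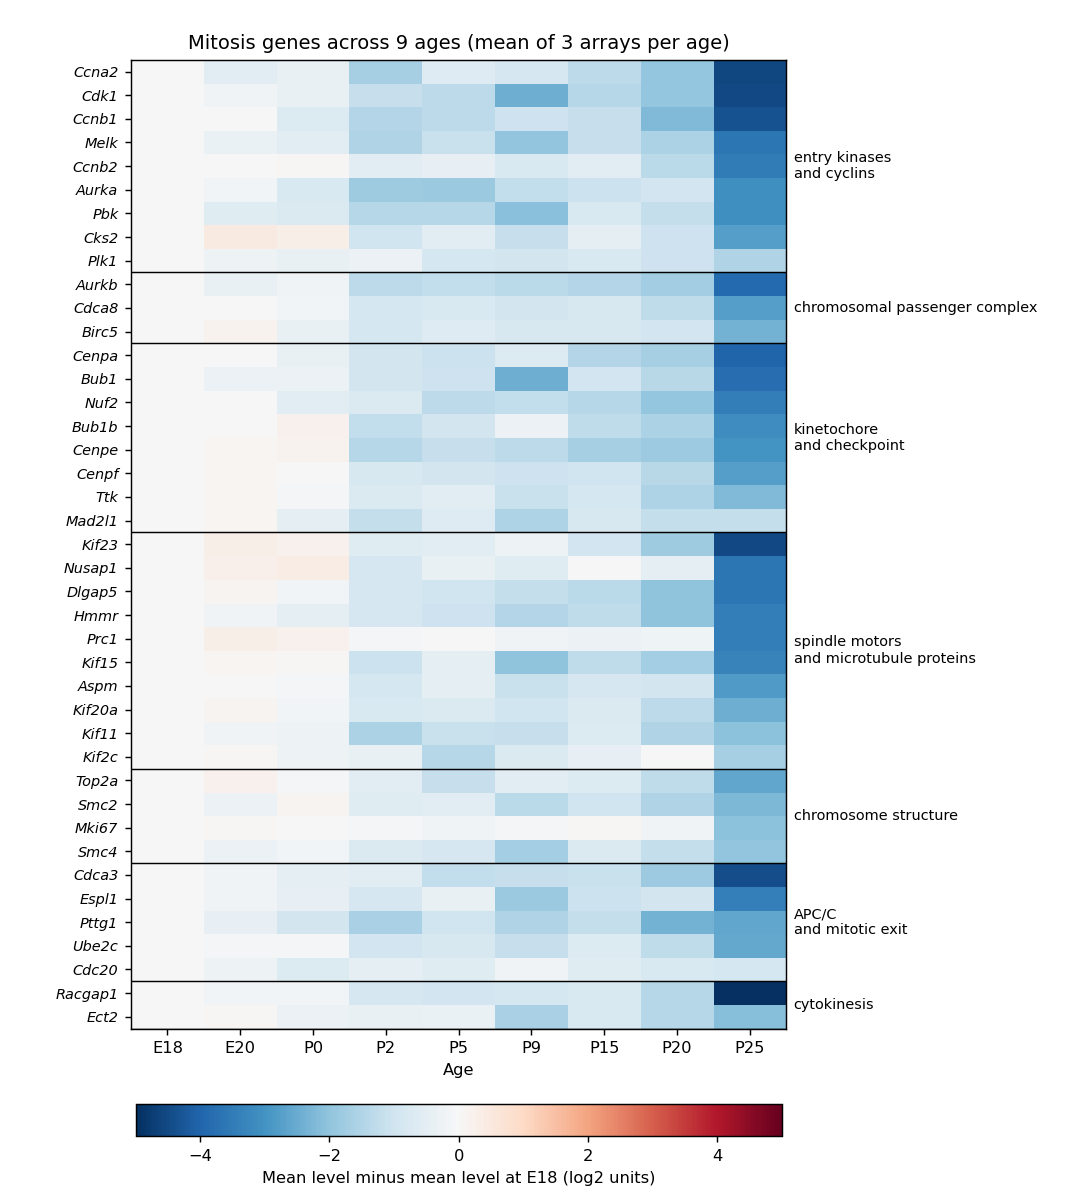
Mean log2 level of each of the 41 mitosis genes at each of the 9 ages (3 arrays per age) minus its mean at E18, grouped by role. Most genes have a pale first block up to P0, a light blue block from P2 to P20 and a dark blue column at P25; Racgap1 is lowest at -5.01, and Mad2l1 and Cdc20 are the palest at P25, at -1.19 and -0.87.

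Genes expressed late in the cell cycle often carry a cell cycle homology element, the letters TTTGAA, which is bound by the DREAM and MuvB complexes, and CCAAT boxes, which are bound by NF-Y. Promoters were read from RefSeq (assembly GRCr8) as the 250 bases before and 50 bases after the start of a gene, on both strands, and 36 of the 41 genes matched (not Aurkb, Ccna2, Pbk, Racgap1 and Ube2c). TTTGAA was present in 26 of the 36 promoters (72.2%), against 18.3% of 33469 promoters of all genes and 17.1% of 21851 of protein-coding genes. CCAAT was present in 28 (77.8%), against 37.5% and 38%, and both motifs in 22 (61.1%), against 7.41% and 7.04%. In 12 of the 36 (33.3%) a TTTGAA lay within 25 bases of the start, against 2.81% and 2.4%. One promoter of each role is shown, chosen among those with a TTTGAA as that of the gene with the lowest difference from P20 to P25. Each promoter shown therefore holds a TTTGAA by selection. The promoters are read 5′ to 3′ on the strand of the gene over the 120 bases before the start (for Ect2 with 3 bases more). TTTGAA and CCAAT on either strand are in capitals, so that ATTGG is CCAAT on the other strand.
Cdk1 (chr20:19265173-19265292, plus strand): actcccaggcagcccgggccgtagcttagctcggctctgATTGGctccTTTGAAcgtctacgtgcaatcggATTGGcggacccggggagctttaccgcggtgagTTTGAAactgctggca
Cdca8 (chr5:142483200-142483319, minus strand): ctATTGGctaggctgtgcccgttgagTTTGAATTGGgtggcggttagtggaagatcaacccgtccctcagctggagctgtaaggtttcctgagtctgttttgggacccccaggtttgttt
Cenpa (chr6:31431553-31431672, minus strand): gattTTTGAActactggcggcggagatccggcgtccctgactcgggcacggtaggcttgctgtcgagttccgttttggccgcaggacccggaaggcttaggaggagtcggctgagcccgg
Prc1 (chr1:143659361-143659480, plus strand): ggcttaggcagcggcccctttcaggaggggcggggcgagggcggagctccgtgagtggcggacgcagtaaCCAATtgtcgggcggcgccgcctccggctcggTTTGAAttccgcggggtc
Mki67 (chr1:199952594-199952713, minus strand): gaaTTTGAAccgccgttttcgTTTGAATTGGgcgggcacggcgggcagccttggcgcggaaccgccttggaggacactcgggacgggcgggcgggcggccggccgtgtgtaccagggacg
Espl1 (chr7:135302596-135302715, plus strand): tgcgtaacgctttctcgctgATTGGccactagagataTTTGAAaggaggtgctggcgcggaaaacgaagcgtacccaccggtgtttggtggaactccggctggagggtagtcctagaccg
Ect2 (chr2:111966624-111966746, minus strand): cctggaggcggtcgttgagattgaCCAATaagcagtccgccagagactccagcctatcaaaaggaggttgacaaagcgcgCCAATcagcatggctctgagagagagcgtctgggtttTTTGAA
Cdk1 holds a TTTGAA that begins 16 bases before the start between the last CCAAT and the gene, Prc1 has the same order with its TTTGAA at 18 bases, and in Cdca8 and Mki67 the 2 motifs share letters. Cenpa has no CCAAT in the window shown. These are matches of letters and not sites known to be bound. The median difference from P20 to P25 was -1.50 in the 26 genes with a TTTGAA, of which 11 fell, and -1.87 in the 10 without, of which 4 fell, so both medians lay below 0.

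The steps between adjacent ages were then taken one by one. The median difference of the 41 genes was -0.02 from E18 to E20 and -0.11 from E20 to P0, where 0 of 41 passed the limma test, 0 at an unadjusted p under 0.05, against 0.00644% of all probe sets called lower in each step. From P0 to P2 it was -0.71, with 39 of 41 genes below 0, against a median of 0.03 over all probe sets. In 20 genes every P2 array lay below every P0 array (7.53% of all probe sets). Even so 0 of 41 passed the adjusted limma test (0.0709% of all probe sets fell at that threshold). At an unadjusted p under 0.05, where the share of all probe sets is not given, 8 did: Cks2, Cenpe, Cenpf, Kif11, Aspm, Nusap1, Aurkb and Aurka. From P2 to P15 the medians were close to 0, at 0.04 (P5), -0.18 (P9) and 0.19 (P15) and 0 of 41 called in each limma test (2, 6 and 4 at an unadjusted p under 0.05), against 0%, 0.0161% and 0.0387% of all probe sets called lower. From P15 to P20 it was -0.46 and from P20 to P25 -1.64, where the median of all probe sets was 0.10. Per day the differences were -0.354 from P0 to P2, -0.0926 from P15 to P20 and -0.328 from P20 to P25.

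**Figure D3:**
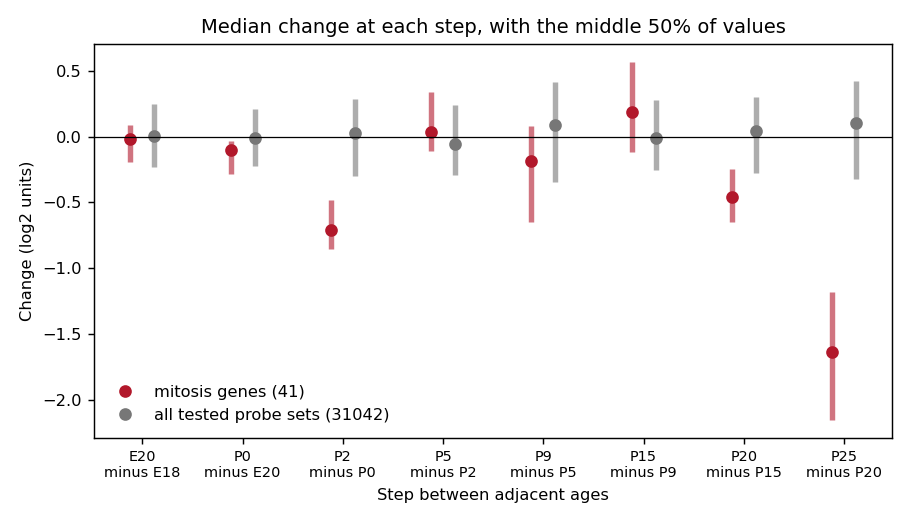
Median log2 difference between adjacent ages, with bars over the middle 50% of values, for the 41 mitosis genes and for all 31042 probe sets. The median of the mitosis genes lies below that of all probe sets at P0 to P2 (-0.71), at P15 to P20 (-0.46) and most widely at P20 to P25 (-1.64); the ages are not evenly spaced in days.

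The question around birth was which mitosis genes were lower after it. With P2 and P5 (6 arrays) set against E18, E20 and P0 (9 arrays), stages that the study drew on these same arrays, 9 of 41 genes fell and 0 rose, against 1.33% of all probe sets that fell. The median difference was -0.81, all 41 values lay below 0, and 27 genes had an unadjusted p under 0.05 (share of all probe sets not given). By role 3 of 9 entry kinases and cyclins fell, 1 of 3 passenger proteins, 2 of 8 kinetochore and checkpoint genes, 3 of 10 spindle genes, and 0 in the other 3 roles. In 5 genes, Cdca8, Cenpf, Nusap1, Top2a and Racgap1, every later array lay below every earlier one (0.722% of all probe sets).

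Aurka, the kinase that matures centrosomes, stood at 7.20, 7.79 and 8.18 at E18, 7.69, 7.62 and 7.41 at E20 and 7.40, 6.70 and 6.83 at P0, then at 6.24, 6.41 and 5.23 at P2 and 6.74, 5.55 and 5.26 at P5. The groups overlapped only through P5 replicate 1, which was above the lowest P0 array, and Aurka fell by 1.52 ± 0.31 (SE; limma, adjusted p = 0.00726). Cenpf, a large protein of the outer kinetochore, lay between 10.97 and 11.41 on the 9 earlier arrays and between 10.02 and 10.78 on the 6 later ones. Those ranges did not overlap, and Cenpf fell by 0.87 ± 0.19 (adjusted p = 0.0103). Cenpe, the motor that carries chromosomes along the spindle, fell by 1.37 ± 0.34 (adjusted p = 0.0273), Cdk1 by 1.05 ± 0.26 (adjusted p = 0.0292) and Cks2, a small subunit of the Cdk1 kinase, by 0.99 ± 0.25 (adjusted p = 0.0349). Dlgap5, Birc5, Kif20a and Kif11 fell by 0.92, 0.69, 0.75 and 1.20, but of 38 alternative fits their calls were lost in 15, 19, 22 and 27. For Aurka and Cenpf the call was lost in 2 each, for Cenpe in 10, for Cdk1 in 12 and for Cks2 in 13. At the other end Mki67 differed by -0.16 ± 0.13 and Prc1 by -0.22 ± 0.31.

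The count of 9 depended on the fit: it was 0 with marker levels of muscle, epidermis and cartilage as covariates and 0 without the 4 arrays that stood apart from others of their age (replicate 1 of E18, of E20 and of P0, and P5 replicate 2), though the medians were then -1.24 and -0.75. Leaving out 1 array gave 2 to 10 genes, with 2 to 4 without any of E18 replicates 2 or 3, E20 replicates 2 or 3, P0 replicates 1 or 2, P2 replicates 1 or 3 and P5 replicates 2 or 3. Markers of other cells moved with the same ages, among them 10 of 15 acinar and 3 of 7 myoepithelial markers, which rose. The mean of 9 epidermis and hair follicle markers ran from 5.45 to 8.81 up to P0 and from 7.12 to 9.42 at P2 and P5, where 4 of 9 rose (1.63% of all probe sets rose), that of 11 adipocyte markers from 5.20 to 6.73 and from 6.36 to 8.82, where 9 of 11 rose, and that of 8 cartilage and bone markers from 5.85 to 9.94 and from 5.22 to 6.76, where 2 of 8 fell. Of the 11 skeletal muscle markers 0 passed the limma test (0 at an unadjusted p under 0.05), with array means from 5.60 to 11.33 and from 5.51 to 10.75. Their part in the result was not tested beyond the covariate fit.

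From P15 to P20 the test called 0 of 41 genes (limma, 0 at an unadjusted p under 0.05), against 0.110% of all probe sets that fell. Of the 41 values 37 lay below 0, and in 3 genes, Kif20a, Dlgap5 and Pttg1, every P20 array lay below every P15 array (7.63% of all probe sets). The intervals of single genes were wide. For Cdk1 the 95% interval ran from -1.36 to 0.33 around -0.52, and for Prc1 from -0.90 to 1.09 around 0.09. The list mean of P20 replicate 2, 7.02, lay below those of the other P20 arrays, 7.96 and 7.82.

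In the step from P20 to P25, 16 of 41 genes fell and 0 rose, against 0.689% of all probe sets that fell. At an unadjusted p under 0.05 there were 31 (share of all probe sets not given), and 40 of the 41 values lay below 0. The median difference of -1.64 was -1.74 relative to the median of all probe sets. In 21 genes every P25 array lay below every P20 array, against 6.45% of all probe sets. The genes that fell were spread over all 7 roles.

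**Figure D4:**
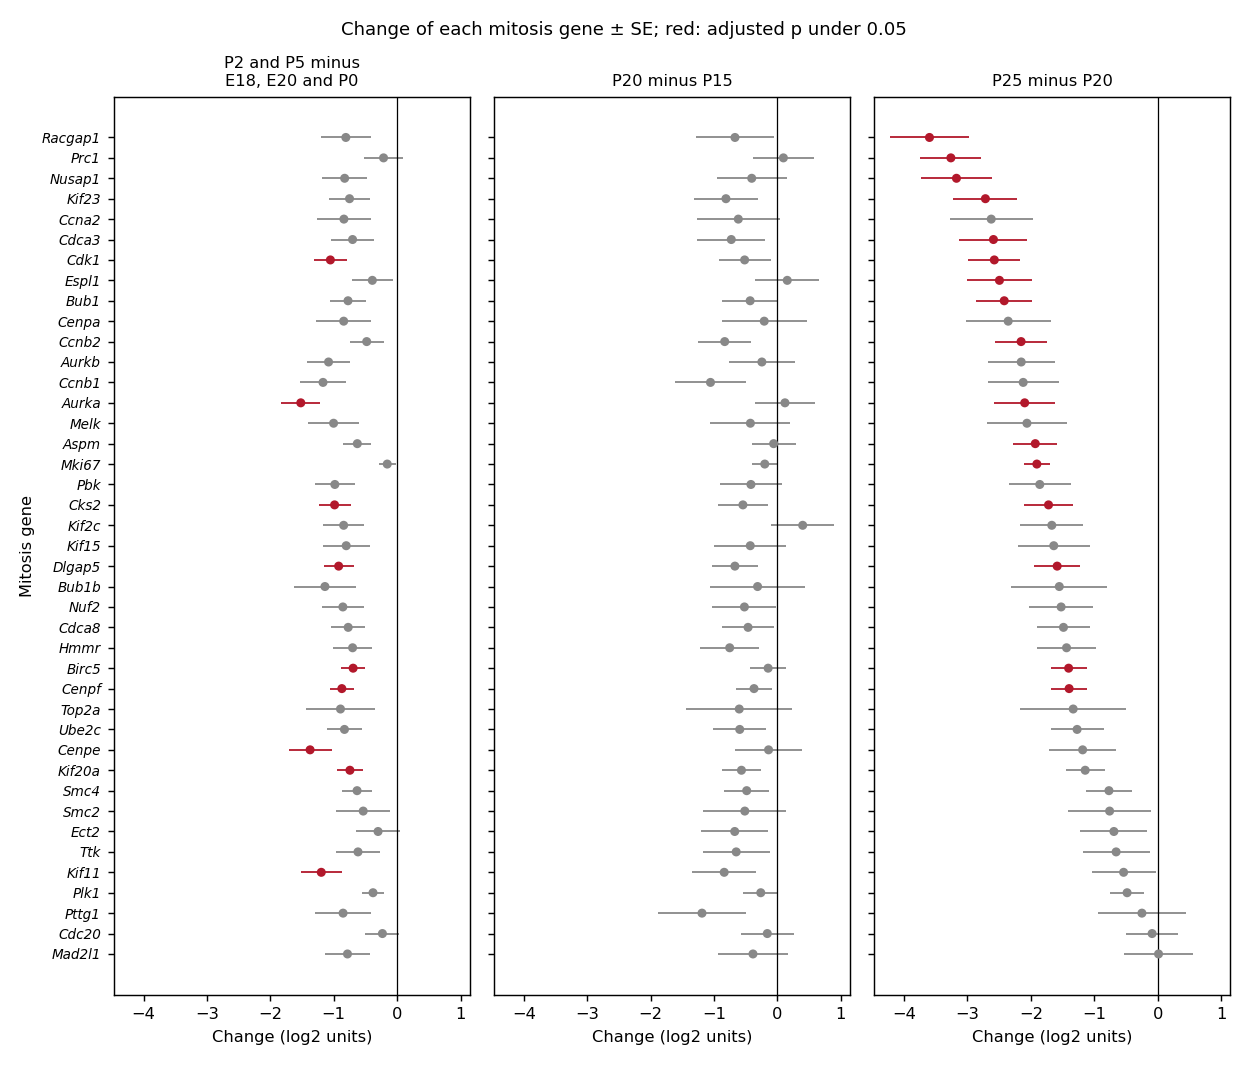
Log2 difference of each of the 41 mitosis genes ± SE of the limma fit around birth (P2 and P5 minus E18, E20 and P0), from P15 to P20 and from P20 to P25, with genes ordered by the last of these and adjusted p under 0.05 in red. There are 9 red genes in the first panel, 0 in the middle one and 16 in the last, which runs from Racgap1 at -3.60 to Mad2l1 at 0.01.

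Among the kinases and cyclins of mitotic entry 4 of 9 fell, and the median difference was -2.10. Cdk1, the kinase that drives entry into mitosis, stood at 7.58, 6.41 and 7.48 at P20 and at 3.74, 5.18 and 4.83 at P25. The ages did not overlap, and Cdk1 fell by 2.58 ± 0.41, 5.96-fold (limma, adjusted p = 0.00295). Ccnb2, a B-type cyclin, fell by 2.15 ± 0.41 (adjusted p = 0.0160), Aurka by 2.10 ± 0.48 and Cks2 by 1.72 ± 0.39 (adjusted p = 0.0410 for both). Without P20 replicate 1 the difference of Aurka was -1.47 (adjusted p = 0.196). Of 38 alternative fits the call was lost in 18 for Aurka, 16 for Cks2, 5 for Ccnb2 and 2 for Cdk1. Ccna2, cyclin A2, had the largest difference of the group, -2.62 ± 0.66, but its P20 values of 6.90, 3.77 and 7.31 were far apart and overlapped those of P25 (3.17, 2.78 and 4.15), and the adjusted p was 0.0567. Ccnb1, cyclin B1, differed by -2.12 ± 0.56 (adjusted p = 0.0709). Its other, dimmer probe set differed by -2.19 and just passed (adjusted p = 0.0496). Plk1, a kinase that acts from entry to cytokinesis, had the smallest difference, with 6.84, 6.22 and 7.04 at P20 and 6.20, 6.0 and 6.46 at P25. Its ages overlapped slightly, and the difference was -0.48 with a 95% interval from -1.05 to 0.09.

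The chromosomal passenger complex corrects faulty attachments and then helps to divide the cell. Birc5, or survivin, one of its subunits, stood at 8.11, 7.72 and 7.58 at P20 and at 6.28, 6.18 and 6.73 at P25. The ages were separate, and Birc5 fell by 1.40 ± 0.29 (adjusted p = 0.0219). Aurkb, the kinase of the complex, went from 6.10, 6.16 and 7.30 to 4.42, 4.94 and 3.74, also without overlap, but with a difference of -2.15 ± 0.53 its adjusted p was 0.0518. Cdca8, or borealin, differed by -1.49 ± 0.41 (adjusted p = 0.0856), and its P25 replicate 2 at 7.23 lay above its P20 replicate 2 at 6.67.

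Of the 8 kinetochore and checkpoint genes 2 fell. Bub1, a checkpoint kinase, stood at 7.74, 6.55 and 8.13 at P20 and at 4.78, 4.70 and 5.69 at P25, with no overlap, and fell by 2.42 ± 0.44 (adjusted p = 0.0119). Cenpf fell by 1.40 ± 0.29 (adjusted p = 0.0238), a call lost in 7 of 38 alternative fits. Mad2l1, the checkpoint protein that holds back APC/C, was the 1 gene of 41 with a value above 0: it stood at 7.91, 5.75 and 7.67 at P20 and at 7.09, 6.89 and 7.40 at P25. Those ages overlapped fully, and the interval of the difference ran from -1.13 to 1.16. Cenpa, the histone that marks centromeres, differed by -2.36 and its ages did not overlap, but the P20 arrays ran from 6.87 to 9.55 and the adjusted p was 0.0953.

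The largest group, 10 genes of spindle motors and microtubule proteins, held 5 that fell. Prc1, which bundles the microtubules of the central spindle, stood at 9.38, 8.43 and 9.12 at P20 and at 6.75, 5.52 and 4.87 at P25. Every P25 array was below every P20 array, and Prc1 fell by 3.26 ± 0.48, 9.59-fold (adjusted p = 0.00152). Nusap1, a spindle microtubule protein, went from 9.85, 7.66 and 9.36 to 7.17, 5.78 and 4.40 and fell by 3.17 ± 0.55 (adjusted p = 0.00751), with -3.82 without P20 replicate 2, -3.87 without P25 replicate 1 and -2.48 without P25 replicate 3. Kif23, the kinesin that works with Racgap1 at the central spindle, fell by 2.72 ± 0.51 (adjusted p = 0.0127), with -2.01 without P25 replicate 3 and -1.98 as the mean of its probe sets. Aspm, a protein of the spindle poles, fell by 1.93 ± 0.35 (adjusted p = 0.00987) and Dlgap5 by 1.58 ± 0.37 (adjusted p = 0.0437). Of 38 alternative fits the call was lost in 19 for Dlgap5 and in 3 for Aspm. Kif11, the motor that pushes the spindle poles apart, stood at 5.63, 5.58 and 7.86 at P20 and at 6.15, 5.55 and 5.76 at P25. Its ages overlapped, with a difference of -0.54 and an interval from -1.58 to 0.51.

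Among the 4 genes of chromosome structure Mki67 alone fell. Mki67 encodes Ki-67, the coat protein of mitotic chromosomes used as a marker of dividing cells, and stood at 12.47, 12.08 and 12.49 at P20 and at 10.25, 10.87 and 10.20 at P25. The P25 arrays were well below all others, and Mki67 fell by 1.91 ± 0.20, 3.75-fold (adjusted p = 2.32e-05). On the 24 earlier arrays it had kept between 12.08 and 12.73, at mean percentiles of 99.5 to 99.6 of all probe sets at each age. Whether so bright a probe set can show small changes was not tested. Top2a, topoisomerase II alpha, stood at 10.26, 8.21 and 9.76 at P20 and at 10.45, 8.72 and 5.07 at P25: P25 replicate 3 was low and the others were not, and the difference was -1.33 ± 0.84 (adjusted p = 0.455). Smc2, a condensin ATPase, had 6.20, 4.74 and 6.11 at P20 and 3.63, 6.22 and 4.91 at P25. These overlapped as well, and its difference was -0.76 with an interval from -2.12 to 0.60.

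**Figure D5:**
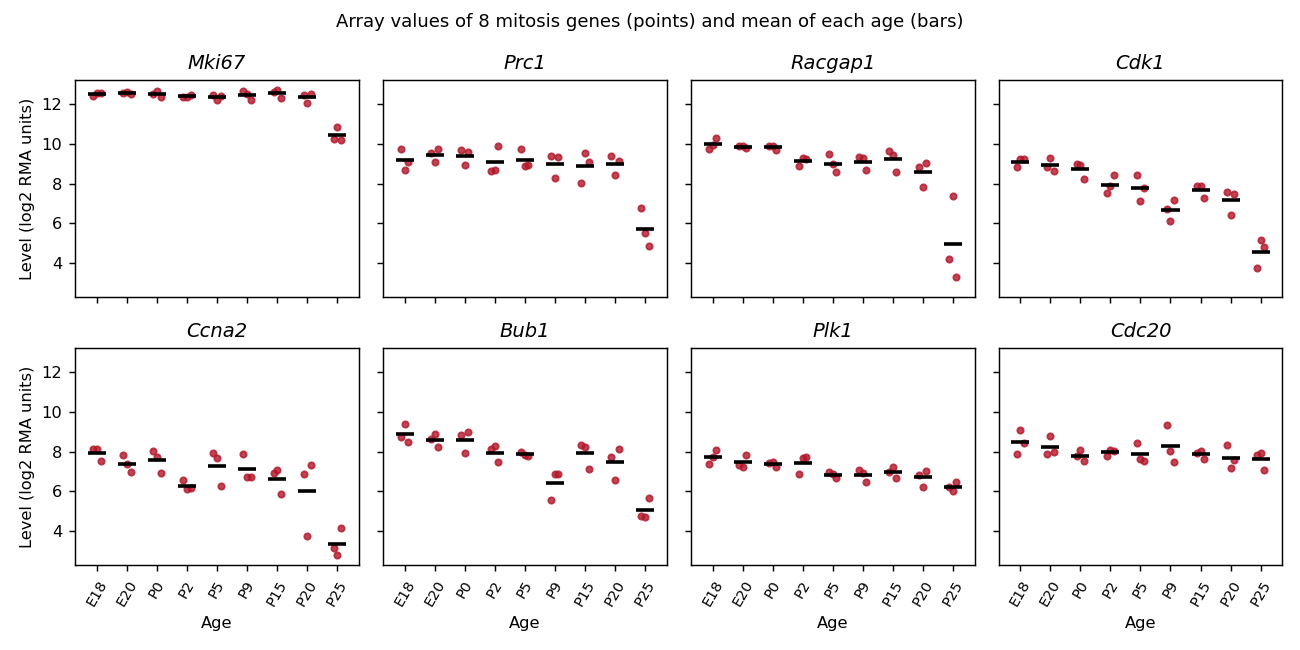
Log2 level of 8 mitosis genes on each of the 27 arrays (points) with the mean of each age (bars). Mki67 is level up to P20 and lower at P25, Prc1 and Racgap1 are lowest at P25, Ccna2 has 1 low P20 array at 3.77, and the ages of Cdc20 overlap throughout.

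Of the 5 genes of APC/C and mitotic exit 2 fell. Cdca3, a substrate of APC/C that promotes mitotic entry, stood at 8.23, 7.24 and 7.86 at P20 and at 6.90, 4.19 and 4.47 at P25 and fell by 2.59 ± 0.54 (adjusted p = 0.0238). Its difference was -3.45 without P25 replicate 1 and -2.09 in the fit with the smallest fall, and the call was lost in 7 of 38 alternative fits. Espl1, or separase, fell by 2.50 ± 0.51 (adjusted p = 0.0219), with -1.87 and an adjusted p of 0.0746 without P20 replicate 2. Cdc20, the activator of APC/C in mitosis, stood at 8.33, 7.17 and 7.58 at P20 and at 7.83, 7.91 and 7.09 at P25, and its difference of -0.09 had an interval from -0.95 to 0.77. Of the measured genes of cytokinesis, Racgap1, part of the centralspindlin complex, had 8.85, 7.84 and 9.02 at P20 and 4.21, 7.39 and 3.30 at P25. P25 replicate 2 was close to the lowest P20 array and the others far below, and Racgap1 fell by 3.60 ± 0.62, 12.1-fold (adjusted p = 0.00668). The fold was 28.1 without P25 replicate 2, 6.80 without P25 replicate 3 and 3.97 as the mean of its probe sets. Ect2, the exchange factor that Racgap1 binds, stood at 7.54, 5.29 and 6.46 and then at 5.38, 5.23 and 6.62, an overlap, with a difference of -0.69 and an interval from -1.79 to 0.41.

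The number of genes called in this step rested on the fit across all ages. It was 0 when only the arrays of P20 and P25 were fitted, 1 (Mki67) with the dissected glands alone, 10 without the 4 arrays that stood apart before P9 (named above), 4 without P20 replicate 1 and 9 without P20 replicate 3, while the median difference lay between -1.87 and -1.47 without any 1 array. Of 38 alternative fits the call was also lost in 6 for Espl1, 4 for Birc5 and for Bub1, 3 for Kif23 and for Nusap1, 2 for Prc1 and for Racgap1 and 1 for Mki67.

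Both of the last steps use the P20 arrays, so their values are set side by side and tested only as a difference. The step from P20 to P25 minus the step from P15 to P20 had a median of -1.21, with 37 of 41 values below 0. After adjustment 0 of 41 passed (limma, 0.0580% of all probe sets), and 13 had an unadjusted p under 0.05 (share of all probe sets not given). Mki67 came nearest, with -0.20 and then -1.91 and a difference of -1.71 ± 0.35 (adjusted p = 0.105). Prc1 had 0.09 and then -3.26 (difference -3.36 ± 0.83, adjusted p = 0.242). The count was 1 with trend and robust moderation or with array weights, and 2 without P25 replicate 2.

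The share of the course from E18 that lay in the last step was then taken. For the 41 genes the largest of the 8 steps downward was that from P20 to P25 in 33, against 14.1% of all probe sets, and the next largest was that from P0 to P2 in 19. Already at P20, in a contrast added after the data had been seen, 21 of 41 had fallen from E18 (7.64% of all probe sets), with a median of -1.40, and in 28 the arrays did not overlap (14.3% of all probe sets). The last step made up a median of 53.8% of the difference between E18 and P25. On the brightest probe sets it made up in 4 genes at least 85%: Mki67 (92.3%), Prc1 (94.2%), Nusap1 (87.8%) and Kif2c (100.1%), a kinesin that takes microtubules apart and that passed neither the F test nor that of the last step. On their other probe sets the share was 73.0% for Nusap1 and 50.2% for Kif2c. In 8 it made up at most 35%: Plk1, Ttk, Kif11, Smc2, Ect2, Cdc20, Pttg1 and Mad2l1. Of these Ttk had 49.0% and Kif11 54.5% on the other probe set, Mad2l1 52.7% and 59.1% on the others, and Cdc20 27.9% to 77.5% on the 3 others that fell from E18 to P25, so the low shares of these 4 genes depended on the probe set. Cdk1 lay between, at 56.9%, with means of 9.11 at E18 and 8.72 at P0 and a fall of 4.53 ± 0.41 from E18 to P25, 23.1-fold (adjusted p = 9.11e-08).

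Some of the smaller differences belonged to the probe set. Of the 12 genes with more than 1 probe set, Mad2l1 differed from P20 to P25 by 0.01 on the brightest and by -1.61 and -1.47 on the others, which both fell from E18 to P25 (by 3.05 and 2.49). The other probe set of Ttk, a checkpoint kinase, had -2.12 (adjusted p = 0.0546) against -0.65 on the brightest. The 4 other probe sets of Cdc20 had -3.33, -2.46, -0.53 and 0.51, and 3 of them fell from E18 to P25 while the last rose by 0.82 (adjusted p = 0.0161). In Racgap1 it was the reverse, with -0.38 on the dimmer probe set. Nusap1 fell on both (by 2.43 on the dimmer, adjusted p = 0.00305).

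Other genes of the pathway were taken from 7 lists. Of 19 transcription regulators of the cell cycle 2 fell from P20 to P25, with a median of -0.13, where 0.689% of all probe sets fell. Foxm1, the activator of G2 and mitosis genes, stood at 7.38, 7.08 and 7.37 at P20 and at 5.09, 4.73 and 5.18 at P25 and fell by 2.27 ± 0.33 (adjusted p = 0.00149). E2f8, an atypical E2F repressor, stood at 8.74, 6.60 and 8.55 and then at 3.62, 6.16 and 3.77 and fell by 3.45 ± 0.55 (adjusted p = 0.00305). Mybl2, or B-Myb, which binds MuvB in late cell cycle genes, differed by 0.23 ± 0.45, after means of 6.75 at E18 and 4.04 at P15.

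Among 29 other kinetochore and centromere genes 4 fell (median -0.66), including Spc24, a subunit of the Ndc80 complex, with -2.67 ± 0.38, Ska1, which couples kinetochores to microtubules, with -2.60 ± 0.51, and Cenpw, a centromere protein, with -2.30 ± 0.43. Among 30 other spindle, centrosome and cytokinesis genes 4 fell (median -0.83). Arhgap11a stood at 10.62, 9.50 and 10.27 at P20 and at 6.51, 5.29 and 8.03 at P25 and fell by 3.52 ± 0.44 (adjusted p = 0.000248), while Stil, a centriole protein, and Kif22, a chromosome motor, fell by 2.86 ± 0.54 and 1.52 ± 0.31. Of 17 APC/C subunits 1 fell, Anapc4 by 0.92 ± 0.21 (median -0.24). Of 14 cohesin genes 0 passed the limma test (5 at an unadjusted p under 0.05, median -0.44), as did 0 of 5 other condensin subunits (3, median -0.96) and 0 of 16 entry phosphatases and kinases (4, median -0.26), among which Wee1, the kinase that restrains Cdk1, differed by -1.78 ± 0.47 (adjusted p = 0.0741). From E18 to P25, 8 of 19 regulators, 8 of 17 APC/C subunits, 7 of 14 cohesin genes, 2 of 5 condensin subunits, 17 of 29 kinetochore genes, 22 of 30 spindle genes and 8 of 16 entry phosphatases and kinases fell, against 13.4% of all probe sets, and 1 cohesin gene and 1 entry gene rose (20.1% of all probe sets).

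Markers of neighbouring cells also stood lower at P25 than at P20 in part. The mean of 12 fibroblast markers lay between 8.85 and 8.96 at P20 and between 8.08 and 8.54 at P25, with 0 of 12 called (limma, 3 at an unadjusted p under 0.05) and a median of -0.72. That of 7 myoepithelial markers lay between 7.93 and 8.33 and between 6.93 and 7.81, with 0 of 7 called (1 at an unadjusted p under 0.05) and a median of -0.85. Of 10 lymphocyte markers 1 rose, Ms4a1 (0.232% of all probe sets rose), with array means of 5.65 to 6.07 at P20 and 5.86 to 6.20 at P25. In the same step 0 markers were called of duct cells (11), endothelium (11), erythroid cells (9), macrophages (12), adipocytes (11), skeletal muscle (11), epidermis and hair follicle (9), cartilage and bone (8), Schwann cells and neurons (8) and acinar cells (15), with 1, 0, 2, 0, 0, 0, 0, 0, 0 and 2 at an unadjusted p under 0.05. The skeletal muscle mean was 6.72, 8.14 and 6.32 on the P20 arrays and 5.29, 6.01 and 8.70 on the P25 arrays. At P20 and at P25 the array highest in muscle markers was the lowest in the mean of the mitosis genes. The same held at E18, E20, P2, P9 and P15, while at P0 and P5 that array was the highest in the mitosis genes. With muscle, epidermis and cartilage markers as covariates 16 genes passed the test from P20 to P25, with a median of -1.65. They were not all the same genes, since Aurka no longer passed. The part of the other cells in the values of the mitosis genes was not tested.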

How the data were processed

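RNA of the captured acinar cells was amplified, and the biotin-labelled product was read on Affymetrix expression arrays for the rat. What the authors deposited are log2 values from RMA, a method that removes background, equalises the arrays and condenses the probes of a set to 1 number. Its software version is not given in the sources used here. The deposited values were used unchanged. The table holds 31099 probe sets, and tests ran on 31042 after 57 controls were removed. Of these 20826 had 1 gene symbol, 436 several and 9780 none. Array medians lay between 5.91 and 6.13 and correlations within an age between 0.873 and 0.962, while precision is limited by how many arrays there were.

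Tests were run in limma 3.58.1 (R 4.3.3) with 1 coefficient per age over all 27 arrays (18 residual degrees of freedom) and Benjamini-Hochberg adjustment over all 31042 probe sets, two-sided, at 0.05. The shares of all probe sets printed with a test are of adjusted calls. Counts at an unadjusted p under 0.05 have no such share beside them. The scripts were tested on simulated data. The mitosis genes, 7 other gene lists and 13 marker lists were chosen with earlier results of these data known, so no p is given for a list. Array values are given for Mki67, Cdk1, Top2a and the measured members with the largest and smallest change from P20 to P25 in each role, and up to 3 genes per other list by the size of t. Other genes given were chosen after their values were seen. Alternatives were another centring or normalisation, a filter on low levels, other moderation, array weights, a replicate block, means over probe sets, marker covariates, subsets of ages and leaving out arrays. The fits on heads or dissected glands alone and the contrast of P20 with E18 were chosen after seeing the data. The 4 arrays that stood apart were likewise picked from the data, by name and without a numerical rule. Promoters came from RefSeq, assembly GRCr8.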

Additional observations from a re-analysis of the deposited data

How the results depend on the processing

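Between E18 and P25 the count of 39 lower genes stayed within 33 to 41 under every alternative run, and that of 35 genes over the 9 ages within 31 to 38. Leaving out 1 array gave 37 to 39 and 32 to 36. For E20 to P0, P0 to P2 and P15 to P20 every alternative gave 0, as did every fit without 1 array. The 9 genes lower around birth became 3 after a second quantile normalisation, 0 with marker covariates and 0 without the 4 arrays that stood apart, 13 with heads alone, and 2 to 10 without 1 array. The 16 genes lower from P20 to P25 became 0 with only the ages compared, 1 with dissected glands alone, 10 without the 4 arrays, and 4 to 19 without 1 array (19 without P25 replicate 2). The difference between the last steps went from 0 genes to 1 with trend and robust moderation, 1 with array weights, and 0 to 2 without 1 array. No called gene reversed in any of these. Of 1443 values for the genes called from E18 to P25, 1425 kept the call, as did 506 of 608 from P20 to P25 and 220 of 342 around birth. The cause of the changes was not tested.

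The replicate numbers were not taken as pairs, since over 108 pairs of the same number and different ages the correlation of deviations had a median of 0.014 (-0.009 for other numbers) and exceeded 0.1 in 11. Even so 16 of 27 arrays correlated best with their own number, a hint from the data and not from the design. With the replicate block the counts were 36 over the 9 ages, 39 from E18 to P25, 6 around birth, 16 from P20 to P25 and 0 in the others.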
